A study of Mus musculus with 27 samples.

Results

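The response of cultured mouse cortical cells to bicuculline was examined in the presence of DRB, an inhibitor of transcription elongation. Each of the 27 libraries of the series had DRB or triptolide, so how far DRB held transcription back cannot be read from them. The comparison used 6 of the 27 libraries of the series, and its members were the 13047 of 59489 entries of the deposited gene table whose FPKM was 1 or more in 3 or more of those 6 libraries. Of these entries 11470 carried a gene symbol and 1577 were gene models without one. The stimulated group was 3 libraries of wild type primary cortical cells given bicuculline (20 µM, 1 h) and DRB (50 µM, 2 h), and the unstimulated group was 3 libraries given DRB alone (50 µM, 2 h). The cells came from brains of embryos of day 16.5 and had been 14 days in culture. No sort of neurons is named, and the RNA is that of all cells in the dish. Libraries of the same number came from the same culture (N7, N8 and N10), which gave 3 pairs. 2 further sets of libraries served for comparison. They were cells of the same 3 cultures given BDNF (50 ng/mL, 1 h) under DRB, and whole cells given triptolide (1 µM, 3 h) with bicuculline (20 µM, 1 h) or without it. The latter are labelled S1, S2 and S4, and these were taken as 3 other cultures, which the labels do not say in words.

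Bicuculline blocks GABA-A receptors, the chloride channels through which inhibitory neurons silence their targets. In a cortical culture this lets excitatory neurons fire in bursts, and the calcium that enters through NMDA receptors and voltage-gated channels activates calmodulin-dependent kinases and the ERK pathway. Those kinases act on transcription factors already bound in the nucleus, such as CREB and SRF, and the first genes to be transcribed are the immediate early genes, which need no new protein. DRB inhibits CDK9, the kinase that releases paused RNA polymerase II into productive elongation, and triptolide inhibits a subunit of the initiation factor TFIIH, so both are used to separate changes in existing RNA from new transcription.

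The 6 libraries held 83.4 to 133 M fragments, as read from the steps between low values of the table, and 12812 to 13039 entries per library had an FPKM of at least 1. Defining markers of excitatory neurons (Slc17a7, 129 to 182 FPKM after bicuculline and 133 to 203 FPKM unstimulated), of GABAergic neurons (Gad1, 127 to 158 and 138 to 164 FPKM), of astrocytes (Slc1a3, 210 to 247 and 226 to 268 FPKM) and of the oligodendrocyte lineage (Olig1, 57.7 to 85.7 and 65.8 to 86.4 FPKM) were present in every library. Among endothelial markers Cldn5 was listed at 0 in all 6 libraries, while Pecam1 (0.283 to 0.355 FPKM after bicuculline and 0.241 to 0.402 FPKM unstimulated), Kdr and Tek were detected at under 1 FPKM in each. Culture N8 stood apart from the others: on the first principal component, with 57.3% of the variance, its libraries lay at 27.0 after bicuculline and 22.4 unstimulated, against -6.45 to -21.7 in the other 4. Its summed level of the vascular and mesenchymal markers was lower (summed FPKM of 39.8, 3.35 and 37.8 after bicuculline in N7, N8 and N10, and 52.7, 4.16 and 33.9 unstimulated), most of it from Acta2. The sum over the progenitor markers was lower as well (192, 56.2 and 192, and 225, 59.7 and 190.3), most of it from Vim (151, 34.4 and 152, and 178, 36.8 and 145). Not all members followed: Pdgfrb, Pax6 and Hes5 were not low in N8.

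Under DRB, bicuculline raised a small set of entries and lowered none past the threshold. On log2(FPKM + 0.5), in a limma fit with culture as a block and a Benjamini-Hochberg adjusted p under 0.05 as the threshold, 76 entries were called higher (0.583% of those tested) and 0 lower (0%). At an unadjusted p under 0.05 the counts were 618 higher (4.74%) and 327 lower (2.51%). The median log2 change over all tested entries was 0.00. Of the 76 called entries 35 had a log2 change of at least 1, 22 lay between 0.5 and 1, and 19 lay under 0.5. All 76 were higher in 3 of 3 cultures, as were 15.4% of all tested entries, and in 69 of the 76 every bicuculline library lay above every unstimulated one, as in 4.02% of all tested entries. Without the culture block 42 entries were called, and all 42 were among the 76. The count was 45 (0 lower) without the bicuculline library of N7, 49 (1 lower) without the unstimulated library of N7 and 43 (1 lower) without the unstimulated library of N10. It was 22 (0 lower) without both libraries of N7, and 52 (3 lower) without culture N8, the one that stood apart. Without the bicuculline library of N10 it rose to 100 (6 lower), and without both libraries of N10 to 104 (9 lower).

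**Figure D1:**
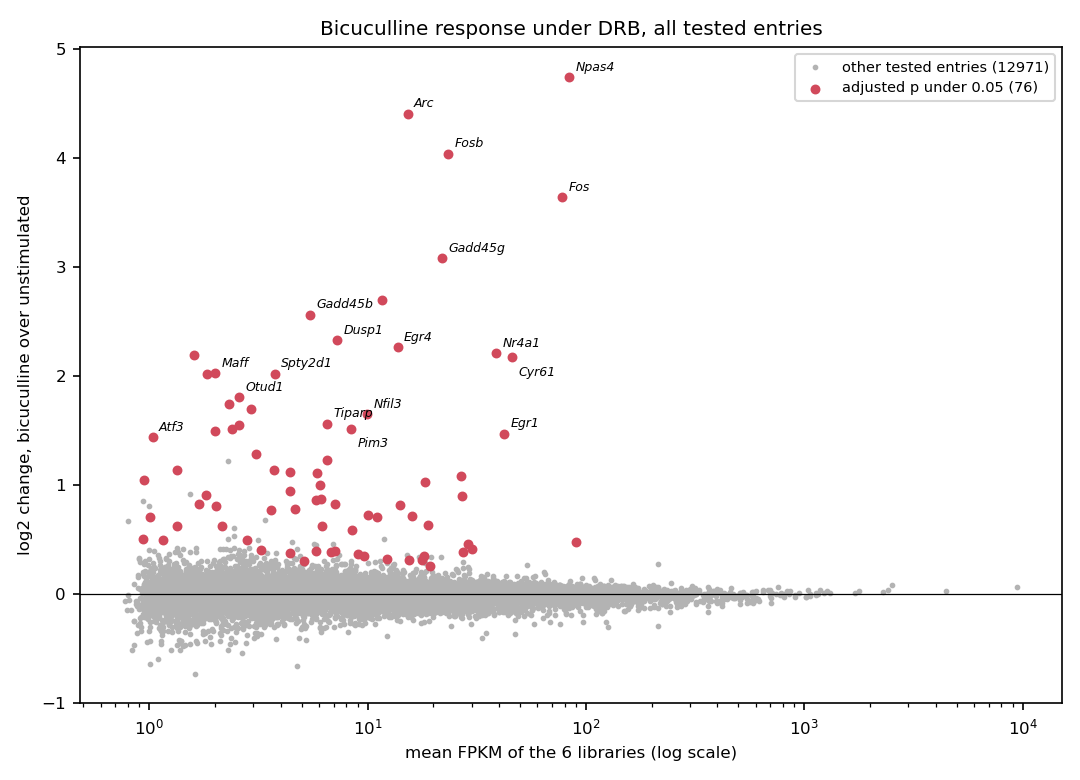
Log2 change (bicuculline over unstimulated, on FPKM + 0.5) of each tested entry against its mean FPKM over the 6 libraries (log scale); red points are the 76 entries with an adjusted p under 0.05, and grey points the other tested entries. The red points all lie above 0 and reach 4.74, while the grey cloud is centred on 0.

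Transcription factors held 3 of the 5 largest rises, and Arc and Gadd45g the others. Npas4 (chr19:4984354-4990316), an activity-dependent factor that depends on calcium entry, was at 133, 201 and 151 FPKM after bicuculline in N7, N8 and N10, against 3.57, 9.0 and 5.03 FPKM in unstimulated cells. The groups did not overlap, and the lowest bicuculline library stood far above the highest unstimulated one. Its log2 change of 4.74 ± 0.12 (SE, limma adjusted p = 4.67e-06) was the largest of all tested entries. Fos (chr12:85473889-85477273), a subunit of the dimeric factor AP-1, was at 145, 147 and 141 FPKM with bicuculline and at 7.33, 16.9 and 11.1 FPKM without it (3.64 ± 0.21, adjusted p = 3.87e-04). The stimulated libraries lay close together, and the spread was in the unstimulated ones, with culture N8 the highest. Its relative Fosb (chr7:19302696-19310045) was at 44.2, 49.0 and 40.1 FPKM against 1.45, 4.24 and 1.70 FPKM (4.04 ± 0.23), again with the highest unstimulated value in N8. Fosl2, another Fos family member, rose less, to 8.08, 10.2 and 6.22 FPKM against 2.92, 4.94 and 2.83 FPKM (1.11 ± 0.08), and its call was lost without the culture block (adjusted p = 0.363).

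The orphan nuclear receptors of the Nr4a family rose in a graded way. Nr4a1 (chr15:101266846-101274795) reached 61.9, 74.6 and 53.9 FPKM after bicuculline, against 10.3, 22 and 10.2 FPKM unstimulated (2.21 ± 0.16, adjusted p = 1.08e-03). Nr4a2 had a log2 change of 1.12 ± 0.13 and Nr4a3 one of 0.72 ± 0.08. Nr4a3 started from a higher level than Nr4a2, 7.44 ± 0.828 FPKM against 2.56 ± 0.067 FPKM in unstimulated cells (SD, n = 3 each). The zinc finger factors of the Egr family split. Egr4 (chr6:85511122-85513589) reached 22.9, 24.3 and 21.8 FPKM with bicuculline and was at 4.12, 5.90 and 3.47 FPKM without it (2.26 ± 0.14). Egr1 (chr18:34859823-34864981), the most abundant of the called members, was at 63.4, 66.8 and 56.0 FPKM against 25.8, 19.9 and 20.8 FPKM (1.47 ± 0.13, adjusted p = 2.02e-03). Egr2 rose by a like amount from a far lower level, with 3.10, 3.22 and 3.24 FPKM after bicuculline and 0.717, 1.02 and 0.719 FPKM unstimulated (1.49 ± 0.11). Egr3 did not pass the test, at 30.3, 34.6 and 26.3 FPKM with bicuculline and 28.4, 34.1 and 26.9 FPKM without it (0.03 ± 0.06, adjusted p = 0.962). Its groups overlapped, and each culture kept its own level.

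**Figure D2:**
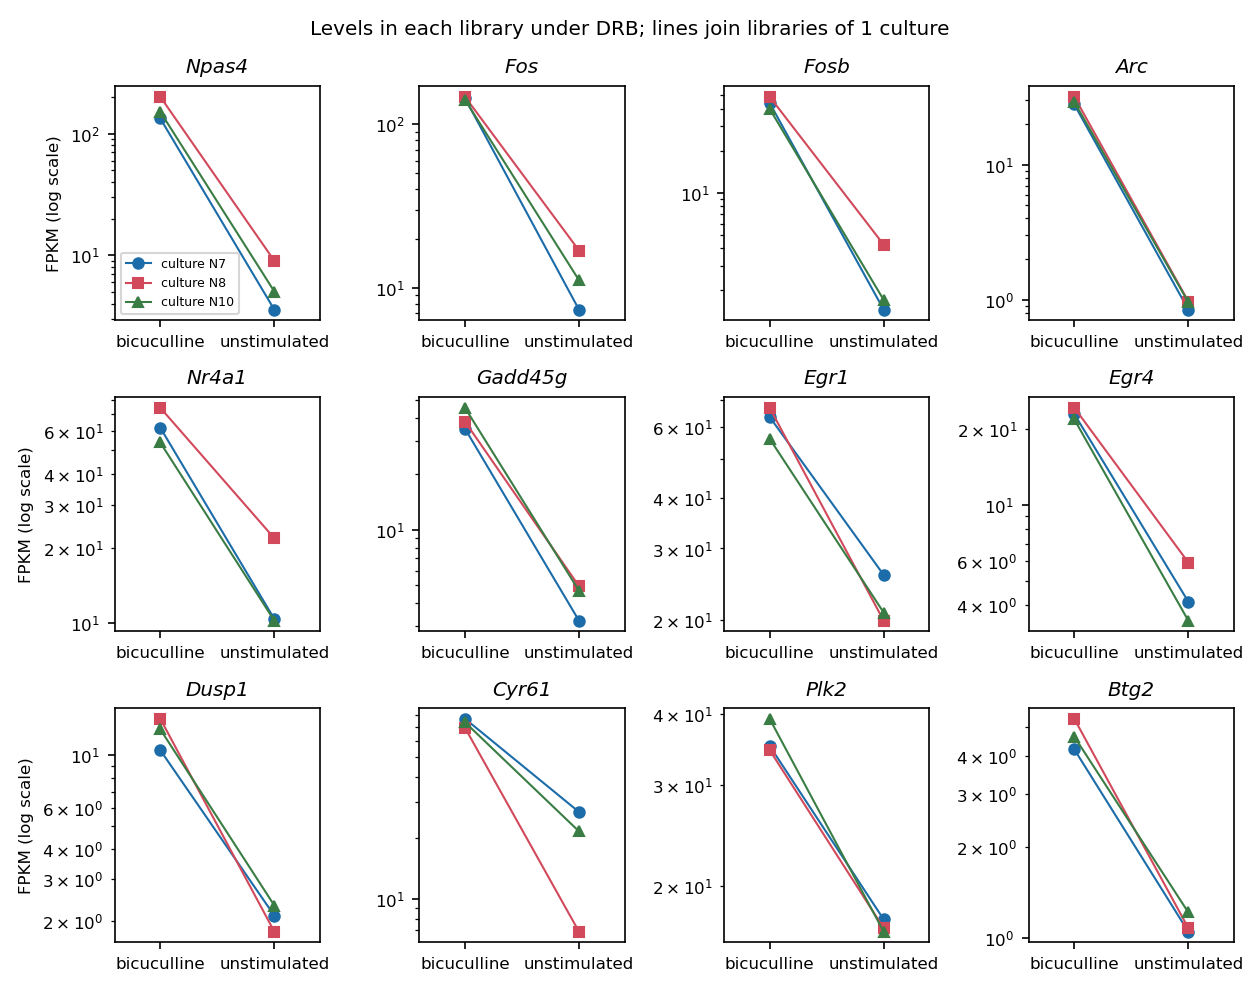
FPKM (log scale, a separate range per panel) of 12 called genes in each library under DRB, bicuculline left and unstimulated right; each line joins the 2 libraries of 1 culture. Every line slopes down to the unstimulated library, and slopes cannot be compared between panels. Of the 12 genes the log2 change was largest for Npas4 (4.74) and Arc (4.40) and smallest for Plk2 (1.08). Cyr61 has a far lower unstimulated value in N8 than in N7 and N10.

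Other early transcription factors rose by up to 2.02 on the log2 scale or did not pass. Maff, a small Maf protein, reached 3.70, 3.36 and 3.50 FPKM against 0.521, 0.490 and 0.455 FPKM (2.02 ± 0.07), with the cultures close together in both groups. The basic leucine zipper factor Nfil3 had a log2 change of 1.65 ± 0.12 and the stress-responsive factor Atf3 one of 1.44 ± 0.15. Ier2 rose by 1.51 ± 0.12, Ier5 by 0.51 ± 0.07, the Kruppel-like factors Klf6 and Klf5 by 0.63 ± 0.07 and 0.62 ± 0.08, and Myc by 0.40 ± 0.06. Leaving out 1 library ended the calls of Ier5 and Myc in 6 of 6 cases, those of Klf6 and Nr4a2 in 4, that of Klf5 in 3 and those of Atf3 and Nr4a3 in 2. Without the culture block Ier5 (adjusted p = 0.282), Klf5 (adjusted p = 0.569) and Myc (adjusted p = 1.00) lost theirs. In all, 18 of 26 tested genes of the immediate early transcription factor list were called higher (69.2%, against 0.583% of all tested entries) and 0 lower, with a list median of 0.92. The list was drawn up with earlier results of these data known, so this share is a description and no independent support. Of its 36 genes 33 had an entry under their name and 26 passed the level filter, some, such as Maff, only through bicuculline. The circadian gene Per1 just missed the threshold (0.50 ± 0.08, adjusted p = 0.0527), and Klf10, a Kruppel-like factor, had a change of -0.14 (adjusted p = 0.471).

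Genes whose products act outside the nucleus or on signalling rose alongside. Arc (chr15:74669081-74672572), whose protein is found at synapses and drives removal of AMPA receptors, was at 28.0, 31.9 and 29.2 FPKM with bicuculline and at 0.844, 0.971 and 0.958 FPKM without it (4.40 ± 0.11, adjusted p = 4.67e-06). Both groups were tight. Gadd45g (chr13:51846670-51848475) and Gadd45b (chr10:80930072-80932204), small stress-induced proteins linked to DNA repair and demethylation, had log2 changes of 3.08 ± 0.08 and 2.56 ± 0.07. Gadd45g reached 35.1, 38.3 and 45.5 FPKM against 3.22, 4.95 and 4.67 FPKM. Gadd45b reached 7.62, 11.9 and 9.43 FPKM against 0.919, 1.63 and 1.11 FPKM. Neither pair of groups overlapped.

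Several kinases and kinase regulators were among the risers. Plk2 (chr13:110395044-110400846), a polo-like kinase that acts on synaptic strength, was at 35.2, 34.6 and 39.3 FPKM after bicuculline, against 17.4, 16.8 and 16.6 FPKM unstimulated (1.08 ± 0.06, adjusted p = 4.19e-04). The kinases Pim3 (1.52 ± 0.11), Sik1 (1.28 ± 0.09) and Sgk1 (0.38 ± 0.05) rose too, though the call of Sgk1 was lost without the culture block (adjusted p = 1.00), with only the 6 libraries in the fit (adjusted p = 0.151) and in 4 of 6 cases with 1 library left out. Plk3 did not pass (0.32 ± 0.05, adjusted p = 0.0681). Rgs2, which speeds the switching off of G proteins, was at 21.8, 32.7 and 19.2 FPKM against 10.3, 17.0 and 8.56 FPKM (1.03 ± 0.09). Its groups did not overlap, but cultures differed about as much as the stimulus did, and without the culture block its adjusted p was 1.00. Btg2, an antiproliferative protein that binds the deadenylase complex, reached 4.22, 5.33 and 4.65 FPKM against 1.05, 1.08 and 1.21 FPKM (1.69 ± 0.11). Tiparp, an ADP-ribosyltransferase (1.56 ± 0.13), Arl4d, a small GTPase (1.23 ± 0.14), Fbxo33, an F-box protein (0.87 ± 0.11), and Mcl1, which opposes apoptosis (0.31 ± 0.04), were also called. With 1 library left out the call of Mcl1 was lost in 5 of 6 cases, that of Fbxo33 in 4 and that of Arl4d in 3. Without the culture block Fbxo33 (adjusted p = 0.939) and Mcl1 (adjusted p = 0.165) did not pass. Of 29 tested genes of the effector list 16 were called higher (55.2%, against 0.583% of all tested entries) and 0 lower, with a median of 0.38. That list too was drawn up with earlier results of these data known, and Arc passed the level filter only through bicuculline. Homer1, a scaffold gene whose short early isoform the gene-level value cannot resolve, was at 38.2, 43.5 and 30.6 FPKM with bicuculline and 36.3, 41.4 and 34.4 FPKM without it (-0.01 ± 0.08, adjusted p = 0.993).

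Cyr61 (chr3:145646971-145649985), a secreted matrix protein, differed from the rest in how its value arose. It was at 77.0, 69.6 and 74.0 FPKM after bicuculline, against 26.8, 6.89 and 21.5 FPKM in unstimulated cells. The stimulated libraries were alike, and the unstimulated library of N8 was far below the other 2, so that the change within a culture was 1.51 in N7, 3.25 in N8 and 1.76 in N10. The mean log2 change was 2.17 ± 0.32 (adjusted p = 0.0400), and leaving out 1 library ended the call in 4 of 6 cases (highest adjusted p = 0.179). The call was also lost without the culture block (adjusted p = 0.134). Acta2, Vim and Nes were low in both libraries of N8, and their part in this difference was not tested.

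Feedback genes of the ERK and other MAP kinase pathways rose in part. Dusp1 (chr17:26505591-26508476), a nuclear phosphatase of MAP kinases, was at 10.5, 14.2 and 12.8 FPKM with bicuculline and at 2.10, 1.80 and 2.32 FPKM without it (2.33 ± 0.10, adjusted p = 8.65e-05). Dusp6, a cytoplasmic phosphatase of ERK, was at 35.6, 32.9 and 37.4 FPKM against 21.2, 17.3 and 17.7 FPKM (0.90 ± 0.07). Dusp5, a nuclear phosphatase of ERK, lay near the level filter at 1.51, 1.20 and 1.38 FPKM against 0.678, 0.671 and 0.582 FPKM (0.70 ± 0.09), and its call was lost in 3 of 6 cases with 1 library left out. Errfi1, an inhibitor of the EGF receptor (1.14 ± 0.08), and the pseudokinase Trib1 (1.55 ± 0.07) complete the called members of this list. That made 5 of 19 tested members called higher (26.3%, against 0.583% of all tested entries) and 0 lower, with a median of 0.18. This list was also drawn up with earlier results of these data known. The Sprouty genes Spry2 (0.34, adjusted p = 0.0526) and Spry1 (0.38, adjusted p = 0.0584) lay just outside the threshold and were higher in 3 of 3 cultures, and the Spred genes lay between -0.11 and -0.04.

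Of 22 tested targets that follow the immediate early wave 1 was called higher (4.55%, against 0.583% of all tested entries), Rgs4, a regulator of G protein signalling, and 0 lower. The list median was 0.03, against 0.00 over all tested entries. Rgs4 was at 89.4, 132 and 94.8 FPKM after bicuculline and at 72.4, 89.9 and 63.6 FPKM unstimulated (0.47 ± 0.07, adjusted p = 0.0476). These groups overlapped because N8 ran high in both, and leaving out a library lost the call in 5 of 6 fits. Bdnf, the neurotrophin, was at 2.43, 2.60 and 2.65 FPKM with bicuculline and 1.74, 1.79 and 1.85 FPKM without it. Its groups did not overlap, yet the change of 0.42 ± 0.14 did not pass (adjusted p = 0.492). The secreted peptide precursor Vgf (0.03, adjusted p = 0.976) and the pentraxin Nptx2 (-0.09, adjusted p = 0.948) did not pass either.

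Genes upstream of the response were set beside the 0.583% of all tested entries that were called higher and the 0% called lower, shares at which lists of this size hold few calls or none. Of 12 tested GABA-A receptor subunits, the targets of bicuculline, 0 were called in either direction, with changes between -0.13 and 0.04. The same count of 0 held for 14 ionotropic glutamate receptors, 15 voltage-gated calcium channels, 29 calcium and ERK pathway kinases and 20 transcription factors present before stimulation, with list medians of -0.05, -0.05, -0.04 and -0.05. At an unadjusted p under 0.05 these 5 lists held 0, 0, 0, 2 and 1 members that were higher and 0, 0, 1, 1 and 0 that were lower. Srf, which binds the serum response elements of early genes, was the highest of the last list (0.28 ± 0.05, adjusted p = 0.0793). Of 25 tested genes of RNA polymerase II pausing and elongation, the process that DRB acts on, 0 were called (2 higher and 0 lower at an unadjusted p under 0.05), with Cdk9 at -0.05 and a median of 0.02. Of 17 CLK kinases and SR splicing factors 0 were called (1 higher and 1 lower at an unadjusted p under 0.05). Clk1, a kinase of SR proteins, was at 19.3, 15.4 and 16.0 FPKM after bicuculline against 14.1, 15.6 and 15.2 FPKM unstimulated, groups that overlapped (0.16 ± 0.09, adjusted p = 0.794). Nuclear genes of oxidative phosphorylation, 26 tested, stayed between -0.03 and 0.05 with 0 called and 0 at an unadjusted p under 0.05.

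Among RNA decay factors, 1 of 23 tested was called higher (4.35%) and 0 lower, against 0.583% and 0% of all tested entries. Tob1, which like Btg2 recruits the deadenylase complex to mRNA, reached 7.38, 9.07 and 8.28 FPKM against 3.37, 4.33 and 3.95 FPKM (1.00 ± 0.06, adjusted p = 7.04e-04), while its relative Tob2 did not pass (0.68 ± 0.13, adjusted p = 0.132). Of 10 tested genes of heat shock and the unfolded protein response 1 was called higher (10%, against the same 0.583%) and 0 lower. It was the Hsp70 co-chaperone Dnajb1, at 13.3, 13.6 and 14.5 FPKM against 8.73, 7.99 and 8.17 FPKM (0.70 ± 0.08). Its call was lost in 3 of 6 cases with 1 library left out. Chac1, a target of the unfolded protein response, had a change of 0.54 that did not pass (adjusted p = 0.337).

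**Figure D3:**
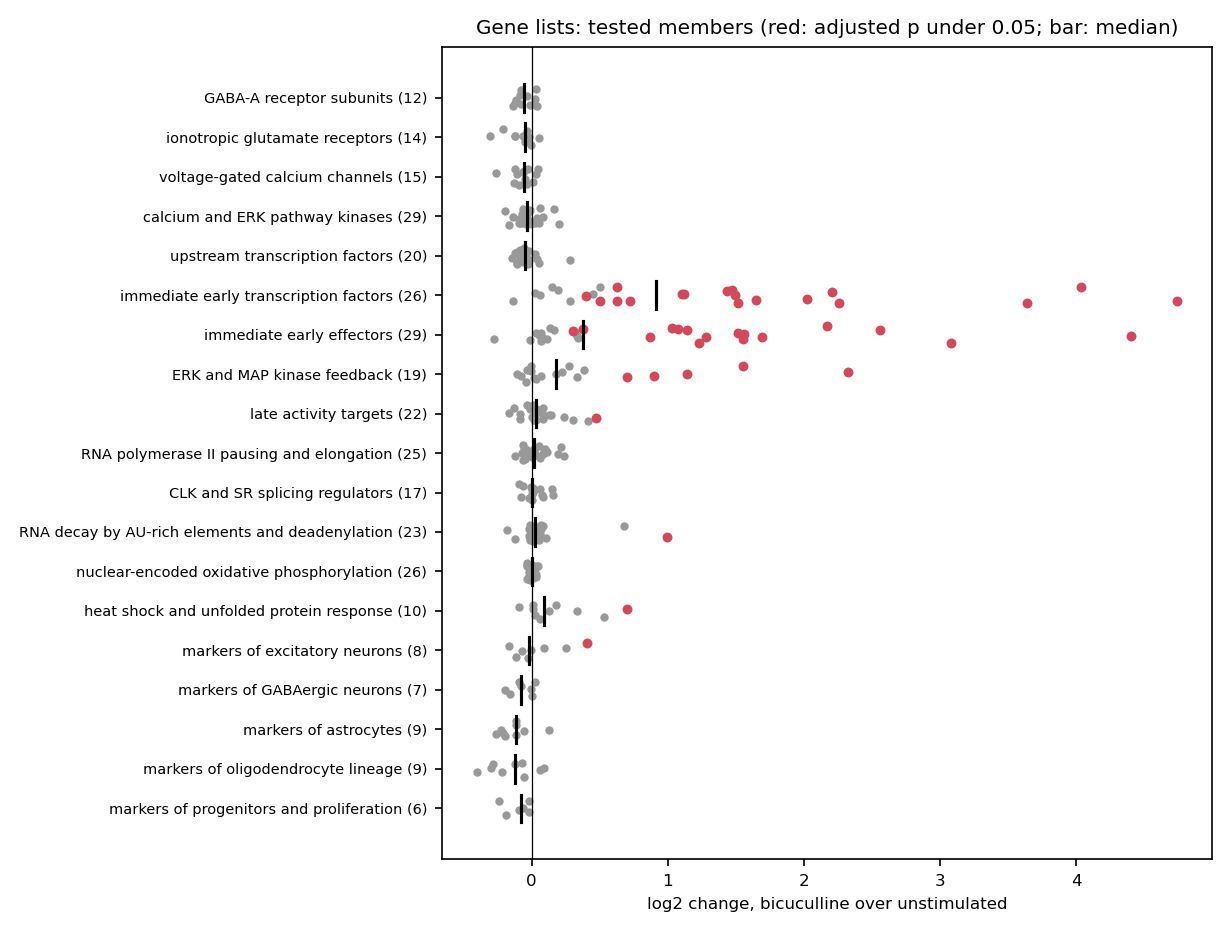
Log2 change (bicuculline over unstimulated) of the tested members of 19 gene lists with at least 5 tested members, whose number stands in brackets; red points passed the test, grey points did not, black bars are list medians, and vertical jitter has no meaning. Red points gather in the 2 immediate early lists and the feedback list (medians 0.92, 0.38 and 0.18), while the other lists hold at most 1 red point each and have medians near 0.

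Beyond the lists, the largest rises with a symbol were those of Spty2d1, a histone chaperone (2.02 ± 0.10), Otud1, a deubiquitinase (1.81 ± 0.14), and Ccno, a protein of the cyclin family (1.74 ± 0.13). Otud1 was at 2.88, 4.95 and 5.12 FPKM with bicuculline and at 0.793, 0.866 and 0.870 FPKM without it. A further 24 called genes were outside the lists and below the 20 largest rises, with log2 changes of 0.25 to 1.13. Among them were regulators of RNA and transcription, such as the cap methyltransferase Cmtr2 (1.05), the cyclin Ccnl1 (0.81), the corepressor Irf2bp2 (0.82), the p300-binding protein Cited2 (0.78), the RNA-binding proteins Mex3b (0.62) and Rbm24 (0.50) and the splicing factor Cwc25 (0.39). Ppp1r15a, a subunit that directs a phosphatase to the initiation factor eIF2, rose by 0.58 ± 0.04. Membrane and signalling genes of this set were the protocadherin Pcdh8 (0.45), the calcium-stimulated adenylyl cyclase Adcy8 (0.36), the ephrin Efnb2 (0.25), the Ras-related Rasl11a (1.13) and the Ras association protein Rassf1 (0.77). Also called were Siah2 (0.87), Pnrc1 (0.81), Lysmd3 (0.62), B3galt2 (0.40), Ifrd1 (0.38), Phospho2 (0.38), Usp2 (0.35), Ccng2 (0.32), Zfp622 (0.31) and Phlda1 (0.30). Without the culture block only Rasl11a, Cmtr2, Siah2, Irf2bp2, Pnrc1, Cited2 and Ppp1r15a of these 24 kept their call. Mex3b (adjusted p = 0.723), Rbm24 (adjusted p = 0.737) and Ccnl1 (adjusted p = 0.545) were among those that lost it. Groups overlapped for Pcdh8, Adcy8 and Usp2, and fits with 1 library left out are not reported here for this set. Of 8 tested markers of excitatory neurons 1 was called (0.583% of all tested entries were), Neurod6, a basic helix-loop-helix factor, at 30.6, 29.7 and 43.2 FPKM against 21.9, 23.1 and 32.5 FPKM (0.41 ± 0.06), groups that overlapped. Its call was lost without the culture block (adjusted p = 1.00), with only the 6 libraries in the fit (adjusted p = 0.0539), with median-ratio scaling and in 4 of 6 cases with 1 library left out.

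A set of 8 called entries had no symbol, and the table gives no strand for them, so the annotation of mm10 (GENCODE M21) at their position says only what lies there. GSMG0038695 (chr8:84972736-84978719) had the largest rise among them, at 19.6, 23.9 and 18.1 FPKM against 2.37, 3.52 and 2.4 FPKM (2.70 ± 0.13, adjusted p = 1.27e-04). Junb, an AP-1 subunit gene, covers 70.8% of it and Prdx2, a peroxiredoxin gene, 35.1%, and reads of these genes cannot be told apart in the value. GSMG0028080 (chr4:95050234-95052171) lies inside Jun, also an AP-1 subunit gene, and the antisense Junos covers 32.9% of it. It was at 20.2, 18.7 and 21.1 FPKM against 11.8, 10.7 and 13.5 FPKM (0.72 ± 0.05), and its call was lost without the culture block (adjusted p = 0.0537). Jun, Junb and Jund were not analysed here under their own names. GSMG0065888 (chr12:40209487-40211073) has the coordinates of Gm17024, a transcript in an intron of Ifrd1, and was at 1.60, 5.45 and 1.93 FPKM against 0.0506, 0.450 and 0.115 FPKM (2.19 ± 0.19), a call lost without the culture block (adjusted p = 0.164). Ifrd1 itself changed by 0.38. GSMG0034673 (0.94) has the coordinates of A330074H02Rik within the host transcript Mir9-3hg, GSMG0008043 (0.83) lies in the noncoding 3110039M20Rik, and GSMG0037291 (0.50) in Glra3, a glycine receptor gene. GSMG0067673 (0.91) spans 44 bases of a pseudogene, and at most 10.7 to 12.5 fragments after bicuculline and 3.90 to 5.18 fragments unstimulated lay behind its values. The calls of these last 4 models were lost without the culture block. With 1 library left out those of GSMG0067673 and GSMG0037291 were lost in 5 of 6 cases, that of GSMG0034673 in 3 and that of GSMG0008043 in 1. The groups of GSMG0037291 overlapped, and its call was also lost with only the 6 libraries in the fit (adjusted p = 0.205).

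The eighth of these entries covers a pair of microRNA genes known to be induced by CREB in neurons. GSMG0005517 (chr11:75172475-75177633) overlaps 1700016P03Rik, a noncoding transcript that holds Mir212 and Mir132, and over 32.8% of its length also Ovca2. It was at 2.33, 3.48 and 4.01 FPKM with bicuculline and at 0.311, 0.453 and 0.482 FPKM without it, groups that did not overlap (2.02 ± 0.09, adjusted p = 8.65e-05). Reads of the host transcript and of Ovca2, on the opposite strand, cannot be told apart in this value, and mature microRNAs were not measured. Their 3-prime arms (RefSeq, GRCm38.p6, plus strand) are shown because they share 1 seed, bases 2 to 8, in capitals.
mmu-miR-132-3p (chr11:75173723-75173744): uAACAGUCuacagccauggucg
mmu-miR-212-3p (chr11:75173443-75173464): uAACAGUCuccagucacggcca

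No fall passed the test in the main fit, though 9 did with both libraries of N10 left out. Among the 6 largest at a mean FPKM of 5 or more with an unadjusted p under 0.05 were 1500015O10Rik (-0.42, adjusted p = 0.192), Bcas1 (-0.38, adjusted p = 0.0613), the noncoding Miat (-0.37, adjusted p = 0.409), Kcnj10 (-0.35, adjusted p = 0.424) and GSMG0070299, a 46 base model in a pseudogene (-0.35, adjusted p = 0.599). Bcas1 is a gene of myelinating cells and Kcnj10 is a potassium channel of glia. Antisense transcripts overlap Bcas1, and Gm26953 lies across most of Miat, so their reads cannot be told apart. Bcas1 was at 5.61, 20.8 and 6.07 FPKM after bicuculline and 7.89, 24.8 and 8.45 FPKM unstimulated, groups that overlapped because N8 was high in both. Of the markers of the oligodendrocyte lineage 5 of 9 were lower in 3 of 3 cultures, and so were 5 of 9 markers of astrocytes, against 11.2% of all tested entries. Other members went the other way: in each list 1 marker, Sox10 and Sox9, was higher in 3 of 3 cultures, against 15.4% of all tested entries. Of either list 0 passed the test (0 higher and 2 lower, and 0 higher and 4 lower, at an unadjusted p under 0.05). The summed level of the oligodendrocyte list was 231, 227 and 204 FPKM with bicuculline and 271, 262 and 205 FPKM without it, and that of the astrocyte list 609, 672 and 512 FPKM against 664, 727 and 572 FPKM. In bulk RNA fewer cells of a type and less RNA per cell cannot be told apart, and the part of these markers in the falls was not tested.

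The median change of the 76 called entries was 0.91 in N7, 0.96 in N8 and 0.92 in N10. The paired test picks entries whose change is alike across cultures, so like medians follow in part from the selection. Among the strongest responders the order of the cultures varied: the change of Npas4 was 5.04, 4.41 and 4.78 in N7, N8 and N10, that of Fos 4.21, 3.09 and 3.61, that of Dusp1 2.07, 2.67 and 2.24, and that of Arc 4.40, 4.46 and 4.35. N8 gave the smallest change for 34 of the 76 entries and the largest for 19. Across all 13047 entries the changes of N7 and N8 correlated at r = 0.562, those of N7 and N10 at r = 0.396 and those of N8 and N10 at r = 0.179, a description across genes, which are not replicates. The changes of all entries spread most in N10, with an SD of 0.249 on the log2 scale, against 0.183 in N7 and 0.181 in N8.

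**Figure D4:**
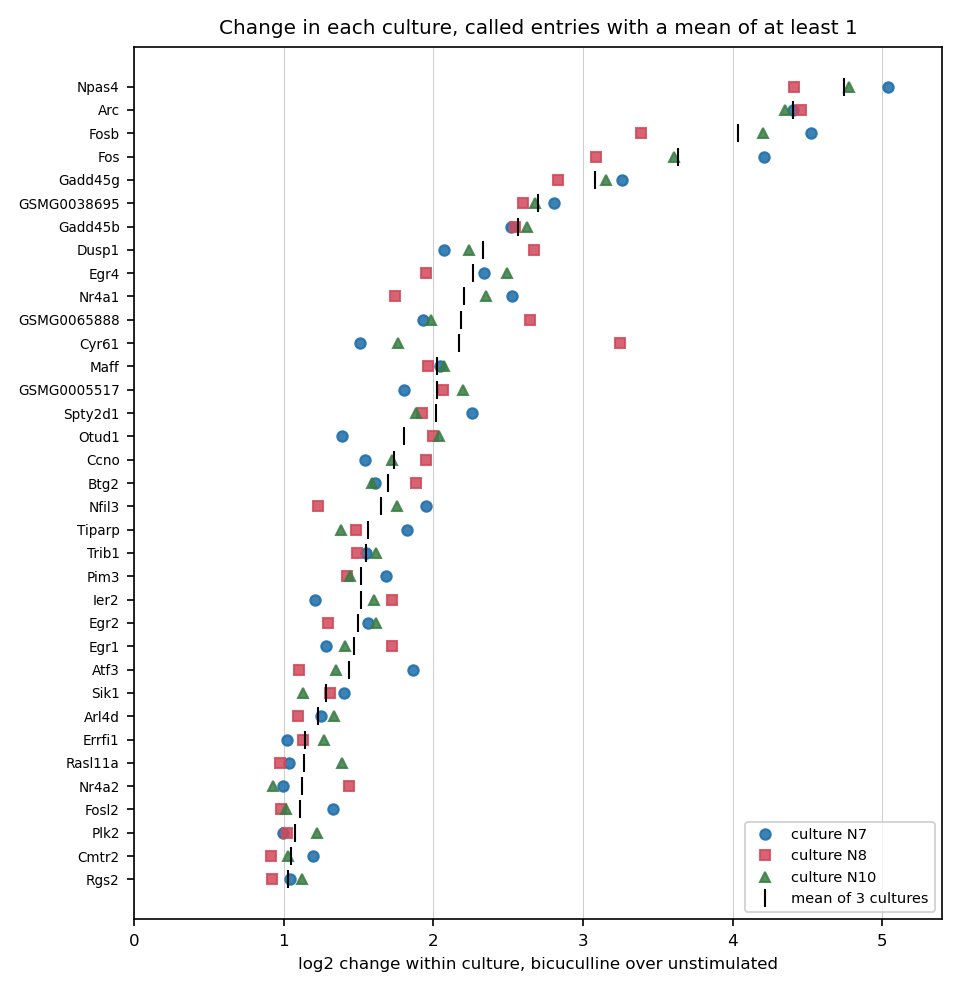
Log2 change within each culture (bicuculline over unstimulated) of the 35 called entries with a mean change of at least 1, ordered by their mean (black tick). Points of the 3 cultures lie close together for Arc, Gadd45b and Maff and far apart for Cyr61, where N8 stands at 3.25 and N7 at 1.51.

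The called genes were short and had few exons. The 68 with a symbol spanned a median of 6344 bases, against 26068.5 bases for all 11470 tested genes with a symbol. A span under 10 kb was found for 42 of the 68 (61.8%) and for 23.1% of all, and one over 100 kb for 2 of the 68, Sgk1 and Adcy8 (2.94%), and for 16.3% of all. None of the 32 with a log2 change of at least 1 exceeded 100 kb. The median number of exons was 3 in the called genes and 8 in all, and 47 of 67 called genes with an exon count had at most 4 (70.1%, against 27.1%). The called genes were also lower before stimulation, with a median of 4.11 FPKM in unstimulated cells against 11.1 FPKM for all. That difference is partly built in, since 11 of the 76 called entries, Arc, Maff and Otud1 among them, were under 1 FPKM in every unstimulated library and passed the level filter only through bicuculline. These values describe the called set and were not tested.

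Promoters of the called genes were searched for the elements bound by the factors named above. RefSeq windows (GRCm38.p6, from 250 bases before to 50 after the annotated start) were at hand for 56 of the 68 called genes and for 8722 tested genes in all. The cAMP response element TGACGTCA, searched on both strands, occurred in 7 of the 56 (12.5%) and in 3.53% of all windows, and its shorter core TGACG, which the full element contains on each strand, in 36 (64.3%) and in 33.5%. The CArG box of SRF was found in 2 (3.57%) and in 1.27%, and the AP-1 element TGAGTCA in 0 of 56 and in 2.87%. Such matches are letters in a window, and binding was not measured here. The 7 genes with the full element were Dusp1, Btg2, Plk2, Arl4d, Ccnl1, Ppp1r15a and Phospho2, and those with a CArG box were Egr2 and Dusp5. The 200 bases before the start are printed for 3 genes with the full element (Dusp1, Btg2, Plk2), for 1 with a CArG box (Egr2) and for 3 strong responders with the core (Fos, Egr4, Nr4a1), each on its gene's strand with every match in capitals.
Dusp1 (chr17:26508473-26508672, minus strand): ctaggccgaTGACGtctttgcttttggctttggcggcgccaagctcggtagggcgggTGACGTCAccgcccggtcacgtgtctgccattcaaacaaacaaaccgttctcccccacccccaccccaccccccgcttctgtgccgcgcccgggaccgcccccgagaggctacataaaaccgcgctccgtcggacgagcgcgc
Btg2 (chr1:134079156-134079355, minus strand): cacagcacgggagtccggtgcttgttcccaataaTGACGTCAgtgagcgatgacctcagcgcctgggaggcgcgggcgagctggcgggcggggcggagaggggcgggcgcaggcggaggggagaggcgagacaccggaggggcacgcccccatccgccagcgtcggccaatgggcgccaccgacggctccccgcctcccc
Plk2 (chr13:110394844-110395043, plus strand): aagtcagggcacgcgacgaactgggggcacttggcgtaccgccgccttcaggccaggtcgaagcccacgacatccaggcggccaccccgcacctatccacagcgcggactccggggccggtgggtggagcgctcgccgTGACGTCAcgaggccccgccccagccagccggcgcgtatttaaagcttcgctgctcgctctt
Egr2 (chr10:67537669-67537868, plus strand): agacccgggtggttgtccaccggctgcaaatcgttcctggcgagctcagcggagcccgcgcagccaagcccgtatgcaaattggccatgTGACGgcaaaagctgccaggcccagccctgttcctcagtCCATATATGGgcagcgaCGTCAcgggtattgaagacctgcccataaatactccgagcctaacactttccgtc
Fos (chr12:85473690-85473889, plus strand): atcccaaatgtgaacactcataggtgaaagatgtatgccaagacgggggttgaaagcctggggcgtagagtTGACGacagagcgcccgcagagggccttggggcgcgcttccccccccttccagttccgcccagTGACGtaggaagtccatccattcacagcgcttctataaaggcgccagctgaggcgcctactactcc
Egr4 (chr6:85513590-85513789, minus strand): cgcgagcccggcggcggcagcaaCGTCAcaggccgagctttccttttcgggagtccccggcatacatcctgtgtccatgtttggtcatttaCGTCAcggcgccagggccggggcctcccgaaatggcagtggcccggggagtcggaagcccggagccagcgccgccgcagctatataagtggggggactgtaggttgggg
Nr4a1 (chr15:101266646-101266845, plus strand): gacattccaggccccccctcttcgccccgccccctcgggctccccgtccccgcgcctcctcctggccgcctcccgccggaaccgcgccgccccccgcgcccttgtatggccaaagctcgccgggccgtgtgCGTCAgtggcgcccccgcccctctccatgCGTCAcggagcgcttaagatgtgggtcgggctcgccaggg
In Dusp1 the full element starts at -143, in Btg2 at -166 and in Plk2 at -62 from the first transcribed base, and the CArG box of Egr2 starts at -72.

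Set against BDNF, the growth factor that activates the receptor TrkB, bicuculline gave higher levels of some of these genes and lower levels of others. Over all tested entries 12 were higher after bicuculline (0.092%) and 57 lower (0.437%), with 3.2% and 4.89% at an unadjusted p under 0.05, and among the 76 entries 11 were higher and 15 lower. The 76 were selected with the same bicuculline libraries, so these counts describe them and are not independent of the selection. Npas4 averaged 162 ± 35.2 FPKM after bicuculline and 74.5 ± 15.4 FPKM after BDNF (SD, n = 3 each, log2 difference 1.12 ± 0.12, limma adjusted p = 0.0139). Otud1 (1.21), Trib1 (0.91), Rasl11a (0.91), Gadd45g (0.88), Rgs2 (0.81), Plk2 (0.72), Maff (0.55), Neurod6 (0.44), B3galt2 (0.36) and Sgk1 (0.35) were higher after bicuculline as well. Among those lower after bicuculline were Arc (-2.03), Ier2 (-1.87), the model over Junb (-1.80), Egr1 (-1.71), Egr2 (-1.62), Egr4 (-1.61), Btg2 (-1.29), the model over Mir212 and Mir132 (-1.20), Dnajb1 (-1.14), Tob1 (-0.98), the model in Jun (-0.92), Dusp5 (-0.76), Ier5 (-0.52) and Ppp1r15a (-0.30). Thus Ier2 averaged 3.80 ± 0.340 FPKM after bicuculline and 15.2 ± 2.26 FPKM after BDNF, and Trib1 4.09 ± 0.145 FPKM after bicuculline and 1.94 ± 0.163 FPKM after BDNF. Fos (-0.31, adjusted p = 0.675), Fosb (-0.16, adjusted p = 0.820) and Nr4a1 (-0.09, adjusted p = 0.852) did not pass in this comparison. The total of 69 called entries was 17 without the culture block, 16 without the bicuculline library of N7, 16 without the BDNF library of N7, 45 without that of N8 and 28 without that of N10.

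Under triptolide the same stimulus gave smaller changes of the strongest responders. Not all called genes followed, as Usp2 changed by 0.45 under triptolide and 0.35 under DRB, and Adcy8 by 0.40 and 0.36. The change in whole cells under triptolide was 0.62 for Npas4, 0.69 for Arc, 1.04 for Fosb and 0.75 for Fos, against 4.74, 4.40, 4.04 and 3.64 under DRB. Npas4 averaged 2.4 FPKM with bicuculline and 1.37 FPKM without it under triptolide, and Fosb 1.41 and 0.424 FPKM. Such levels are near the pseudocount of 0.5 FPKM, which understates the changes under triptolide. Changes under DRB are understated as well for genes low without bicuculline, such as Arc (0.924 FPKM unstimulated). The pseudocount can therefore enlarge or reduce the difference between the experiments, depending on the gene. The difference of the responses, DRB minus triptolide, was called larger under DRB for 35 entries (0.268%) and smaller for 2 (0.0153%), with 2.09% and 6.57% at an unadjusted p under 0.05, and 34 of the 35 were among the 76 entries while 0 of the 2 were. It was 4.12 ± 0.14 for Npas4 (limma adjusted p = 2.46e-07) and 3.72 ± 0.11 for Arc (adjusted p = 6.82e-08). The median difference over the 76 entries was 0.70, against -0.04 over all tested entries. The 76 were selected for a rise in the same DRB libraries, and the level filter used DRB libraries alone. The positive median and the 34 entries larger under DRB therefore follow in part from the choice. For 42 of the 76 the difference did not pass, among them Cyr61 (1.10 ± 0.35, adjusted p = 0.499), Dusp6 (0.49, adjusted p = 0.312), Egr2 (0.82, adjusted p = 0.0523) and Sgk1 (0.04, adjusted p = 0.969). The inhibitor, its duration and the labels taken as cultures all differ between these experiments and cannot be told apart.

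**Figure D5:**
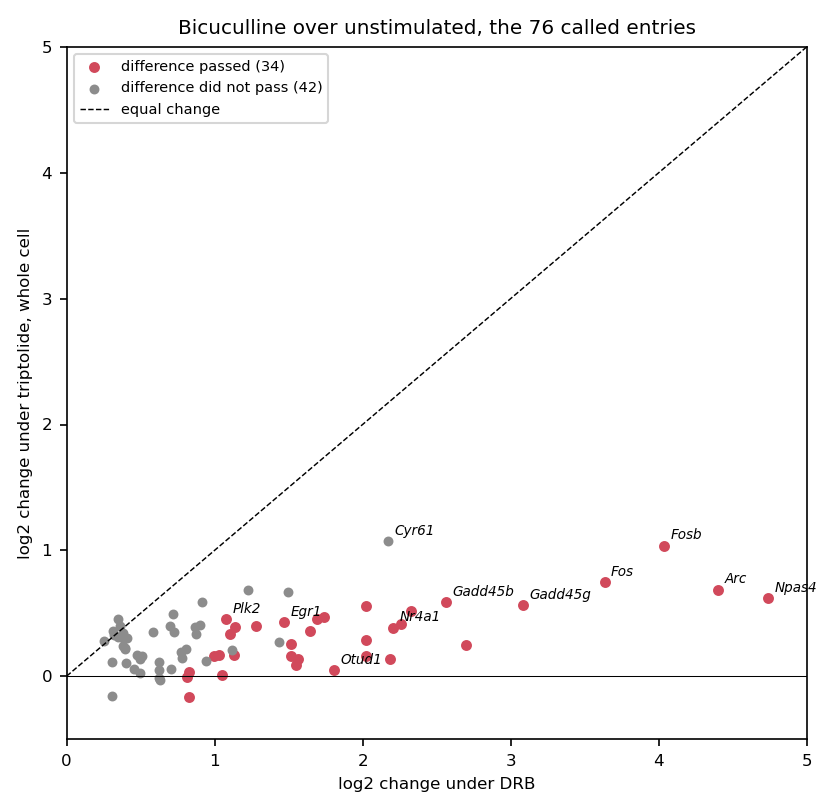
Log2 change of the 76 called entries (bicuculline over unstimulated) under DRB on the horizontal axis and in whole cells under triptolide on the vertical axis; red points are the 34 whose difference passed the test, and the dashed line marks equal changes. Red points lie far below the line, with Npas4 at 4.74 and 0.62, while Sgk1, a grey point, lies near the line at 0.38 and 0.34.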

How the data were processed

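Polyadenylated RNA was measured with a stranded mRNA kit, per the labels' protocols, and the authors deposited 1 table of FPKM per entry and library on FASTDB gene models (a transcript database) of mm10. STAR 2.4.0, SAMtools, Picard and FastQC are listed in the submitters' processing notes. A counter or its strand setting was not given in the sources used here, so antisense and overlapping genes cannot be told apart. The deposited values were taken to log2(FPKM + 0.5), and changes of low genes are understated on this scale. FPKM are not counts, so no count test was run.

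Tested entries had FPKM of 1 or more in 3 or more of the 6 libraries. limma 3.58.1 (R 4.3.3) fitted the 9 DRB libraries, which share the spread, with culture number as a block and moderation with trend and robust, and adjusted p over all 13047 entries. Culture numbers were read from the column labels, and that the S numbers of the triptolide libraries stand for cultures is an assumption. Same-numbered libraries deviated together (correlations of 0.765, 0.844 and 0.680 between bicuculline and unstimulated, and 0.737, 0.779 and 0.463 between bicuculline and BDNF), as they did under triptolide (0.615, 0.668 and 0.507). The DRB minus triptolide difference came from 1 fit of both experiments with cultures as blocks. Because culture is a block, p-values do not measure how far the levels of the 3 cultures lie apart. They rest on the spread left within the fitted libraries once group and culture levels are taken out. Depth was read from the steps of low values, and 3 fragments on a transcript of 2 kb make 0.0113 to 0.0180 FPKM. This limit and the fragment numbers cover counting error only.

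Named genes were the 20 largest called changes with a symbol and a mean FPKM of at least 1, called list members, the 6 largest falls, at most 6 called models without a symbol, and a short list of known activity genes. The rule asked for the strand of the models, which the table does not give, so all 8 are described by position. The other called genes, here and in the comparison with BDNF, are given as sets outside the rule, and some members of the sets described are not reported here. List members outside it, such as Per1, Spry1, Spry2, Plk3, Egr3, Klf10, Srf, Tob2, Chac1 and Cdk9, were chosen after their values were seen. The members, lists and tests were chosen with earlier results of these data known. Scripts were tested on simulated data. Summaries and figures were made in Python 3.11.15 with matplotlib 3.10.9, numpy 2.4.6 and pandas 2.3.3. Alternatives were the block, the pseudocount, the level filter, scaling, moderation, the libraries in the fit and each library left out.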

Additional observations from a re-analysis of the deposited data

Results flagged for a closer look

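The response to bicuculline differed between DRB and triptolide, by the test of the difference itself, for 34 of the 76 called entries. Each of these responses was larger under DRB. The 76 were selected for a rise in the same DRB libraries, and the level filter used DRB libraries alone. This count and its direction therefore follow in part from the choice. Differences are in log2 units, DRB minus triptolide, a scale on which changes of genes low in either experiment are understated. The inhibitor, its duration and the cultures cannot be told apart as the source of these differences. Among transcription factors they were 4.12 for Npas4, 3.0 for Fosb, 2.89 for Fos, 1.85 for Egr4, 1.82 for Nr4a1, 1.74 for Maff, 1.36 for Ier2, 1.29 for Nfil3, 1.04 for Egr1 and 0.77 for Fosl2. Among effectors and feedback genes they were 3.72 for Arc, 2.52 for Gadd45g, 1.97 for Gadd45b, 1.81 for Dusp1, 1.46 for Trib1, 1.42 for Tiparp, 1.26 for Pim3, 1.24 for Btg2, 0.88 for Sik1, 0.86 for Rgs2, 0.83 for Tob1, 0.75 for Errfi1 and 0.62 for Plk2. For Cmtr2 the difference was 1.04, for Rasl11a 0.97, for Ccnl1 0.82, for Irf2bp2 0.79, for Otud1 1.76, for Spty2d1 1.46 and for Ccno 1.27. The models without a symbol gave 2.45 for GSMG0038695, 2.05 for GSMG0065888, 1.86 for GSMG0005517 and 0.99 for GSMG0008043. Adjusted p-values (limma) ran from 6.82e-08 for Arc to 0.0491 for Fosl2.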

How the results depend on the processing

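The count of 76 called entries was 76 with a pseudocount of 0.1 or 1 FPKM, 70 with median-ratio scaling or quantile normalization, 53 without the level filter, 54 with only the 6 libraries in the fit and 43 with a mean FPKM of at least 5, which tests fewer entries. Without the replicate block it was 42. Leaving out a library or a culture gave 22 to 104, of which 0 to 9 were falls. The comparison with BDNF (69 entries) gave 17 without the replicate block, 19 without the level filter, 23 with a mean FPKM of at least 5, 18 with only its 6 libraries and 16 to 82 with a library left out. The DRB minus triptolide difference (37 entries) gave 19 without the replicate block, 12 without the level filter, 21 with a mean FPKM of at least 5 and 25 to 44 with a library left out. Of the 52 named called entries 32 held in each of the 6 fits without 1 library, 35 without the replicate block and 43 with only the 6 libraries. The changes of Vgf (-0.065 to 0.13) and Nptx2 (-0.19 to 0.060), which did not pass the test, changed sign with a library of N8 left out. Medians of the gene lists, an alternative chosen after seeing the data, moved beyond their spread in 4 of 126 cases, all for the effector list (0.36 to 0.40). Where calls were lost and fewer entries or libraries do not account for it, the cause was not tested. The main fit has 4 residual degrees of freedom and takes its spread from the BDNF libraries as well. Bdnf varied more in those (2.38 ± 0.780 FPKM, SD) than after bicuculline (2.56 ± 0.114 FPKM) or unstimulated (1.79 ± 0.058 FPKM). The part of this spread in its missed call was not tested.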

Other observations

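Some activity genes lay under the level filter and were tested only in the fit without it. Klf4, a Kruppel-like factor, was at 1.76, 0.953 and 2.03 FPKM after bicuculline in N7, N8 and N10 and at 0.0718, 0.0252 and 0.0586 FPKM in unstimulated cells (log2 change 1.88 ± 0.15, limma adjusted p = 0.0211 in that fit). Ptgs2, the inducible cyclooxygenase, was at 1.16, 0.625 and 0.993 FPKM against 0.0581, 0.0597 and 0.0470 FPKM (1.34 ± 0.12, adjusted p = 0.0342). In neither gene did the groups overlap. Also called there were Mirlet7i (0.91), Fam150b (0.73), Nfkbid (0.53), a regulator of NF-kappaB, and Hey2 (0.53), a repressor downstream of Notch. Fosl1, the remaining Fos family member, was at 0.126, 0.0768 and 0.0858 FPKM against 0.0112, 0.0118 and 0.0169 FPKM and did not pass (0.22, adjusted p = 0.540).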
